A study of Mus musculus with 40 samples.

Results

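SMRT-only peaks are positions in mouse liver where the corepressor SMRT was mapped with no NCoR or HDAC3 peak close by. SMRT and NCoR are related scaffold proteins that transcription factors bring to DNA, and HDAC3 is the histone deacetylase that both scaffolds hold and activate. Nuclear receptors, among them the thyroid hormone receptor, are well-known partners of the scaffolds. In liver the complex restrains genes of lipid and glucose metabolism.

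The 3 cofactors were mapped by chromatin immunoprecipitation followed by sequencing (ChIP-seq) in livers of ad libitum fed male C57BL/6 mice with floxed Bcl6 alleles (Bcl6 fl/fl). Cre was absent from these controls, so Bcl6 was intact, and the labels do not give an age. Each peak list stood for 3 libraries, pooled by the authors to place the peaks, and came from whole liver, so any of its cell types could contribute. The other 31 of the 40 samples of the series (a hepatocyte Bcl6 deletion, Ppara-null animals, fasting, other antibodies and input chromatin) were not analysed here.

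Members were selected on measured values, the distances between peak centres. A SMRT peak was a member when no NCoR and no HDAC3 centre lay within 200 bp of its own centre. The rule found 357 of 10654 SMRT peaks (3.35%). Of the others, 8730 had both partners within 200 bp and are called shared peaks, 1471 had NCoR alone and 96 had HDAC3 alone. A SMRT-only peak may lack a partner or may have a partner below the authors' calling threshold, and the lists cannot tell these apart, since they hold no height, score or value per library. No source used here gives the sequencing depth. Intervals (exact Clopper-Pearson, 95%) and Fisher's exact tests (two-sided) cover counting error within the lists only. Peaks are not replicates, and no variation between animals can be read from pooled lists.

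Sequence set SMRT-only peaks apart from shared peaks in a pair of motifs. The nuclear receptor half-site was less frequent in members (18.2% against 38.04%) and the HNF6/CUX2 motif more frequent (24.4% against 12.1%). Peaks that hold these motifs are printed here before the full counts, and the half-site example is not typical of members. The letters are the plus strand of GRCm38, and capitals mark matches within the central 200 bp to the motif or motifs named for each peak, so matches to other motifs stay in lower case. The nuclear receptor half-site is AGGTCA, or TGACCT on the other strand. The first peak is the member with the most half-sites (3, equalled by others and taken by position), at chr2:5877475-5877687. It lay in an intron, 14658 bp upstream of the start of Gm13199, with HDAC3 9764 bp and NCoR 9774 bp away. Its half-sites follow each other with a single base between them, the arrangement called DR1, which was found in 2 of 357 members.

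Half-site peak near Gm13199: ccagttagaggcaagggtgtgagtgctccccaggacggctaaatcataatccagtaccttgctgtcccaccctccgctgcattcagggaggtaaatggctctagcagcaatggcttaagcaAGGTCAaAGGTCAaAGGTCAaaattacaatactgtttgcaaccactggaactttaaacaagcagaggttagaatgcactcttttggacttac

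The HNF6/CUX2 motif is TATNGAT, or ATCNATA on the other strand, where N is any base. HNF6 (Onecut1) and CUX2 are liver transcription factors with closely related binding sites. The member with the most matches (5, some overlapping) lay in an intron 2696 bp downstream of the start of B3galnt2, a glycosyltransferase gene, at chr13:13957264-13957476. Its nearest NCoR centre was 2862 bp away and its nearest HDAC3 centre 37914 bp away.

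HNF6/CUX2 peak in B3galnt2: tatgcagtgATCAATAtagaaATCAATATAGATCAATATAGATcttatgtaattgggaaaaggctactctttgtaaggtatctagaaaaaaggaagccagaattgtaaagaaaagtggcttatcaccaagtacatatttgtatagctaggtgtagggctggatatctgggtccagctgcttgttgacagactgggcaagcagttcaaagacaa

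The member that held the largest number of different motifs (5) lay between genes, 206897 bp upstream of Impg1, at chr9:80672272-80672484, with NCoR 104920 bp away. Its capitals mark, from left to right, BCL6/STAT, nuclear receptor half-site, FOX, HNF6/CUX2 and CCAAT box matches, with the half-site and FOX matches sharing no base.

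Peak with 5 motifs near Impg1: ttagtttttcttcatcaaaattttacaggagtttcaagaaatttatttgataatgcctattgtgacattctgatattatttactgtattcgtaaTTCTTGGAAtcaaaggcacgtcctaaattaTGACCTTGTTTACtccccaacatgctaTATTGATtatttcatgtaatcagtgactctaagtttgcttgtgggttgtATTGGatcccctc

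The fourth peak, chosen after its values were seen, is the HNF6/CUX2 member farthest from either partner. It lay in an annotated intron at chr4:68096026-68096238, 858265 bp from the start of Brinp1, the nearest protein-coding gene. NCoR was 734549 bp and HDAC3 734598 bp away. This peak also holds 1 half-site and 1 CCAAT box, in lower case.

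HNF6/CUX2 peak far from a partner: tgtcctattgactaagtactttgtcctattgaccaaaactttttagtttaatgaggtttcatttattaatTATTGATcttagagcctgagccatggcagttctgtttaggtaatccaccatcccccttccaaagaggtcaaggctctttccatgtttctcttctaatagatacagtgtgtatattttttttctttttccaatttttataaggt

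The distances that chose the members were uneven, and they are given as a description. The median distance to the nearer partner was 2125 bp (quartiles 540 and 11721, range 201 to 734549). NCoR was the nearer partner for 258 members and HDAC3 for 99. Of the members, 57 had a partner centre within 400 bp and 126 within 1000 bp, while 97 lay beyond 10000 bp and 24 beyond 100000 bp. Members therefore ran from peaks beside a partner to peaks far from any. Just inside the rule were peaks nearest to Cebpb and Eva1a, each 201 bp from a partner, and just outside it were peaks nearest to Atf3 (200 bp) and Cd180 (199 bp). The intervals of 12 members touched a partner's interval. SMRT peaks whose nearest partner lay over 150 and up to 200 bp away numbered 41, beside 21 over 200 and up to 250 bp.

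**Figure D1:**
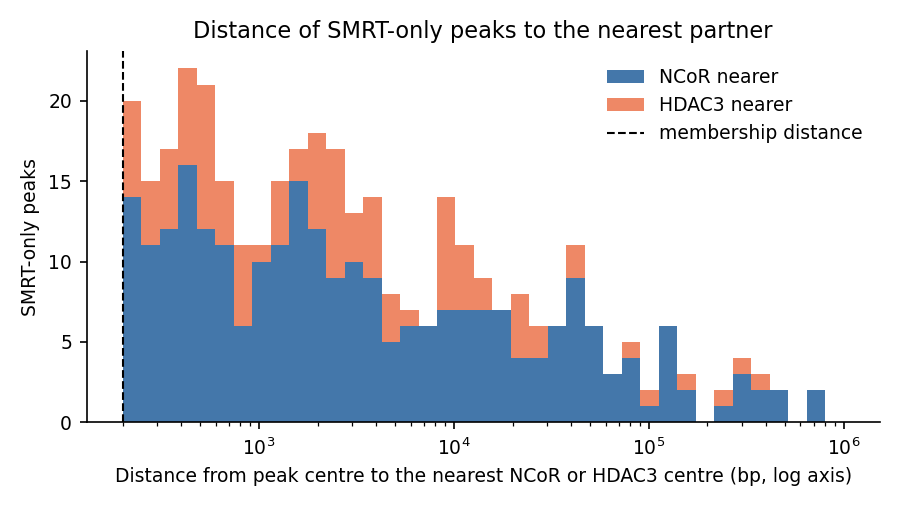
Number of SMRT-only peaks (vertical axis) by the distance in bp from their centre to the nearest NCoR or HDAC3 centre (horizontal axis, log scale), coloured by the nearer partner. Members start at the membership distance of 200 bp (dashed line), have a median of 2125 bp and reach 734549 bp, with NCoR nearer for 258 of 357.

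SMRT-only peaks often had other SMRT peaks around them. A shared SMRT peak lay within 1000 bp of 28 members, within 10000 bp of 130 and within 100000 bp of 250. Another SMRT-only peak lay within 10000 bp of 12 members and within 1000 bp of 0. These counts were not made for shared peaks, so they are a description only. Counting any SMRT peak, 42.3% of members (95% interval 37.1 to 47.6) had a neighbour within 10 kb. The share among shared peaks was 40.6% (39.6 to 41.7), and this difference did not pass the test (adjusted p = 0.655).

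Next, location and base composition were compared with shared peaks in 6 tests. Of the members, 182 were intronic (51.0%), 124 intergenic (34.7%) and 39 in promoters (10.9%), with 7 in UTRs, 4 in non-coding exons and 1 in a coding exon. A promoter was the stretch that begins 1000 bp before a transcription start site (TSS) and ends 100 bp after it. Promoters held 10.9% of members (7.88 to 14.6) and 8.17% of shared peaks (7.60 to 8.76), which did not pass the test (odds ratio 1.38, adjusted p = 0.153). Intergenic shares were 34.7% and 34.1% (adjusted p = 0.820). The centre base was repeat-masked in 11.5% of members and 9.04% of shared peaks (adjusted p = 0.199).

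GC content was the feature that passed the test. In the central 200 bp the median GC was 42.5% in members (quartiles 36.5 and 48.5) and 47.0% in shared peaks (42.5 and 52.0). GC lay above the median of all SMRT peaks, 46.5%, in 32.5% of members (27.7 to 37.6) and 52.2% of shared peaks (51.2 to 53.3). The odds ratio was 0.441 (adjusted p = 1.46e-12). SMRT peaks with NCoR alone, not tested for this feature, were also low, with GC above that median in 35.4% (33.0 to 37.9). The opposite extreme was also present. CpG-rich windows (GC above 50% and an observed over expected CpG ratio above 0.6) made up 5.88% of members (3.68 to 8.85) and 3.36% of shared peaks (2.99 to 3.76), with an odds ratio of 1.80 that fell at the threshold without passing it (adjusted p = 0.0504). Of the 21 CpG-rich members, 18 were in promoters.

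The HDAC3 peaks with neither scaffold within 200 bp (426 HDAC3-only peaks) were the other small class without either partner. They differed from SMRT-only peaks in 4 of the 6 features. Promoters held 10.9% of SMRT-only and 27.5% of HDAC3-only peaks (odds ratio 0.324, adjusted p = 1.20e-08). CpG-rich windows made up 5.88% and 25.6% (odds ratio 0.182, adjusted p = 6.88e-14), and GC above 46.5% was found in 32.5% and 62.0% (odds ratio 0.295, adjusted p = 1.03e-15). Intergenic positions were more frequent among SMRT-only peaks, 34.7% against 23.7% (odds ratio 1.71, adjusted p = 0.00128). Repeat-masked centres (11.5% against 7.28%, adjusted p = 0.0566) and neighbours in the same list (42.3% against 38.5%, adjusted p = 0.306) did not pass, although the first passed with membership at 100 bp (odds ratio 1.52, adjusted p = 0.0302) and the second at 1000 bp (1.51, adjusted p = 0.0423). SMRT peaks with NCoR alone, not tested for these features, were nearer to members, with 8.97% in promoters and 4.42% CpG-rich.

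To describe which factors could recognise these sites, 15 consensus motifs were counted in the central 200 bp of each peak, on both strands. Of these 15, 2 (13.3%) differed from shared peaks after adjustment. The nuclear receptor half-site AGGTCA was present in 65 of 357 members, 18.2% (14.3 to 22.6), and in 3321 of 8730 shared peaks, 38.04% (37.0 to 39.1). The odds ratio was 0.363 (adjusted p = 3.22e-14). In windows 2 kb to either side the half-site was present in 13.0% around members and 13.1% around shared peaks, and it was in 35.8% of all SMRT peaks.

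The HNF6/CUX2 motif TATNGAT moved the opposite way. It was present in 87 members, 24.4% (20.01 to 29.2), and in 1054 shared peaks, 12.1% (11.4 to 12.8), an odds ratio of 2.35 (adjusted p = 3.50e-09). Windows 2 kb away held it in 8.54% of cases around members and 6.36% around shared peaks, and 13.2% of all SMRT peaks held it. Both motifs were found in 13 members, and 2 of the 87 were in promoters. These counts were not set beside those of shared peaks. Matches of HNF6/CUX2 lay near the centre, with 72 of 103 (69.9%) within 50 bp in members and 738 of 1149 (64.2%) in shared peaks. For the half-site, 46 of 79 (58.2%) and 2370 of 4136 (57.3%) lay within 50 bp.

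**Figure D2:**
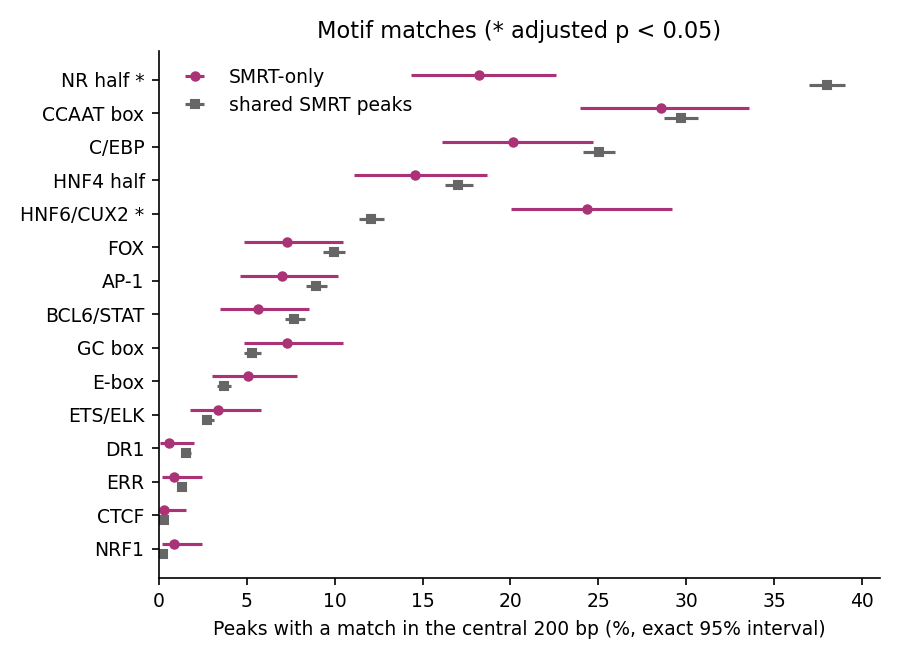
Share of SMRT-only peaks (circles) and shared SMRT peaks (squares) with at least 1 match to each of 15 motifs in the central 200 bp, in percent, with exact 95% intervals for counting error. The nuclear receptor half-site (18.2% against 38.04%) and HNF6/CUX2 (24.4% against 12.1%) are the motifs marked as past the adjusted threshold.

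The other 13 motifs did not pass. Sites of liver factors were present in a similar or lower share of members than of shared peaks, with FOX (TGTTTAC, bound by FOXA and FOXO) at 7.28% against 9.94% (adjusted p = 0.295) and C/EBP (TTNNGCAA) at 20.2% against 25.02% (adjusted p = 0.178). BCL6/STAT (TTCNNNGAA) was at 5.60% against 7.70% (adjusted p = 0.331) and AP-1 (TGANTCA) at 7.003% against 8.94% (adjusted p = 0.345). Longer receptor sites that contain the half-site or resemble it were rare or intermediate. DR1 was found in 2 members (0.560% against 1.54%), the ERR site TCAAGGTCA in 3 (0.840% against 1.29%), and the HNF4 half-site CAAAGNNCA in 52, or 14.6% against 17.0% (adjusted p = 0.345). Promoter motifs were the CCAAT box (CCAAT, bound by NF-Y) at 28.6% against 29.7%, the GC box (GGGCGG, bound by SP and KLF proteins) at 7.28% against 5.30%, the E-box (CACGTG) at 5.04% against 3.70%, ETS/ELK (CCGGAA) at 3.36% against 2.75% and NRF1 (GCATGCGC) in 3 members (0.840% against 0.206%), with adjusted p-values from 0.178 to 0.679. CTCF, an insulator protein, had a match in 1 member (0.280% against 0.252%). DR1 and ERR matches overlap half-site matches, and DR1 matches overlap HNF4 half-sites.

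Because TATNGAT is rich in A and T and members were lower in GC, both motifs were also compared within 4 bands of GC content, a comparison added after the data were seen. The half-site was less frequent in members in each band, at 14.97% against 29.6% at or below 40% GC, 17.3% against 36.5% up to 45%, 19.7% against 40.9% up to 50% and 24.6% against 41.0% above it. The common odds ratio was 0.404 (Cochran-Mantel-Haenszel test, adjusted p = 3.55e-10). For HNF6/CUX2 the difference was uneven. It was present in 42.9% of members (34.7 to 51.3) against 26.2% of shared peaks (24.0 to 28.6) at or below 40% GC, and in 22.7% against 15.3% up to 45%. It was nearly equal up to 50%, at 10.6% against 9.996%. Above 50% it was found in 0 of 69 members against 4.53% of shared peaks. A count of 0 allows a share of up to 4.35% by the limit of 3 counts and up to 5.21% by the exact interval, which includes the share of shared peaks. The common odds ratio fell from 2.35 to 1.67 (adjusted p = 0.00103), a smaller difference than without the bands. Within the bands C/EBP (odds ratio 0.646, adjusted p = 0.00535), the GC box (2.51, adjusted p = 0.000248) and NRF1 (5.27, adjusted p = 0.0131, 3 members) passed as well. The lowest and highest bands are open-ended, so GC and promoter content can still differ within them. Without bands, C/EBP, the GC box and NRF1 passed neither in all peaks nor outside promoters, where their odds ratios were 0.816, 1.06 and 1.8. Bands were not run outside promoters, so these values do not show what promoters add to the results within bands.

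**Figure D3:**
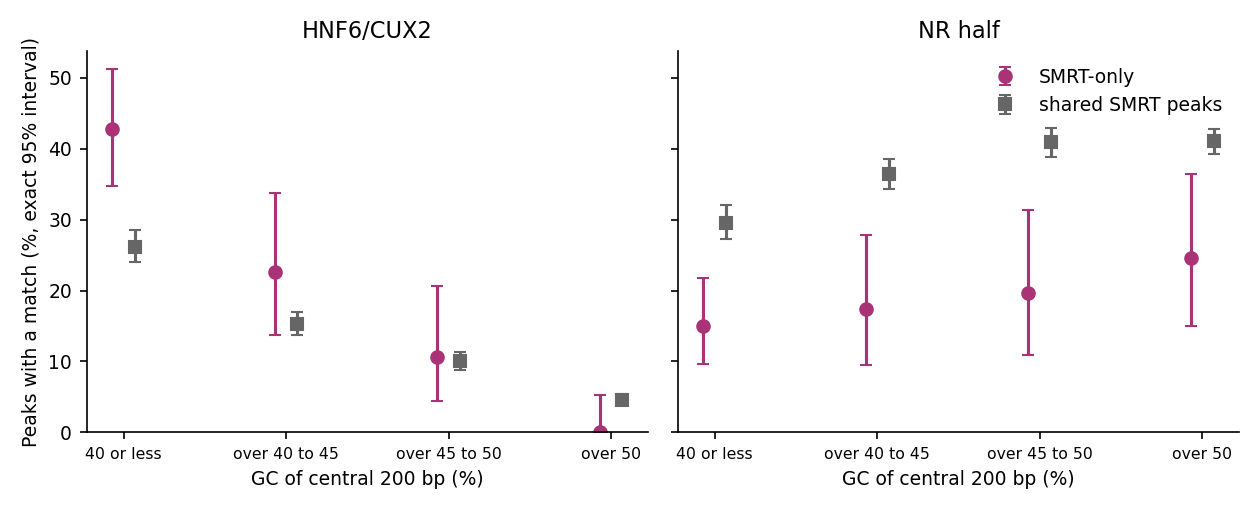
Share of peaks with an HNF6/CUX2 match (left) or a nuclear receptor half-site (right), in percent with exact 95% intervals, in 4 bands of GC content of the central 200 bp. Half-site shares of SMRT-only peaks (circles) lie below those of shared peaks (squares) in each band, while HNF6/CUX2 shares are higher at low GC (42.9% against 26.2%) and 0% against 4.53% above 50% GC, where the intervals overlap.

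All 2080 words of 6 bases (each counted with its reverse complement) were then compared without a preset motif, again after the data were seen. Of these, 104 (5%) were more frequent in members and 74 (3.56%) less frequent. The lowest p belonged to AGGTCA itself, the half-site (odds ratio 0.363, adjusted p = 4.47e-12). This is the half-site test given above on the same windows and peaks, with a wider adjustment, so it is no independent result. Of the less frequent words, 72 of 74 held 3 or fewer A or T letters and 5 contained GGTCA or its reverse complement. The latter included CTGACC (11.8% against 25.4%, adjusted p = 2.20e-07) and GGTCAC (7.84% against 19.6%, adjusted p = 6.73e-07). Words that were more frequent were mostly of A and T, with ATTTAA in 22.7% against 9.66% (adjusted p = 1.51e-09), and 78 of the 104 held 5 or 6 A or T letters. Within GC bands 66 were more frequent and 14 less frequent, of which 24 and 14 were shared with the comparison without bands. The more frequent words with the lowest p within bands were made mostly of C and G, led by CGACGC (2.80% against 0.653%, adjusted p = 9.79e-08 within bands) and CGCCCG (4.76% against 1.83%, adjusted p = 1.56e-07), and both also passed without bands (adjusted p = 0.0071 and 0.0124). ATACAT (11.8% against 4.23%) and AATCAC (17.6% against 8.69%) passed within bands as well, each with adjusted p = 0.000133. Words contained in the HNF6/CUX2 motif on either strand passed without bands only. ATCAAT was in 30.8% against 19.6% (adjusted p = 0.000109), with an odds ratio of 1.285 within bands (adjusted p = 0.354). Within bands TATTGA had an odds ratio of 1.26 (adjusted p = 0.421) and TATAGA of 1.825 (adjusted p = 0.0653). The whole motif passed within bands (1.67, adjusted p = 0.00103).

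The motif shares were then set beside those of other classes. SMRT peaks with NCoR alone held the half-site in 28.0% (25.7 to 30.4) and HNF6/CUX2 in 17.2% (15.3 to 19.2). SMRT-only peaks were lower for the half-site (odds ratio 0.572, adjusted p = 0.000247) and higher for HNF6/CUX2 (1.55, adjusted p = 0.00317), and both differences passed within GC bands (adjusted p = 0.000746 and 0.0289). HDAC3-only peaks held the half-site in 17.8% (14.3 to 21.8), a share not detectably different from the 18.2% of SMRT-only peaks (odds ratio 1.02, adjusted p = 0.926). They held HNF6/CUX2 in 6.10% (4.02 to 8.82), below SMRT-only peaks (odds ratio 4.96, adjusted p = 1.50e-12, and 2.79 within GC bands, adjusted p = 0.000325). SMRT peaks with HDAC3 alone, 96 in number and not tested, held the half-site in 19.8% (12.4 to 29.2), as low a share as in members, and HNF6/CUX2 in 7.29% (2.98 to 14.5). NCoR-only peaks, not tested, held the half-site in 34.4% and HNF6/CUX2 in 6.91%.

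**Figure D4:**
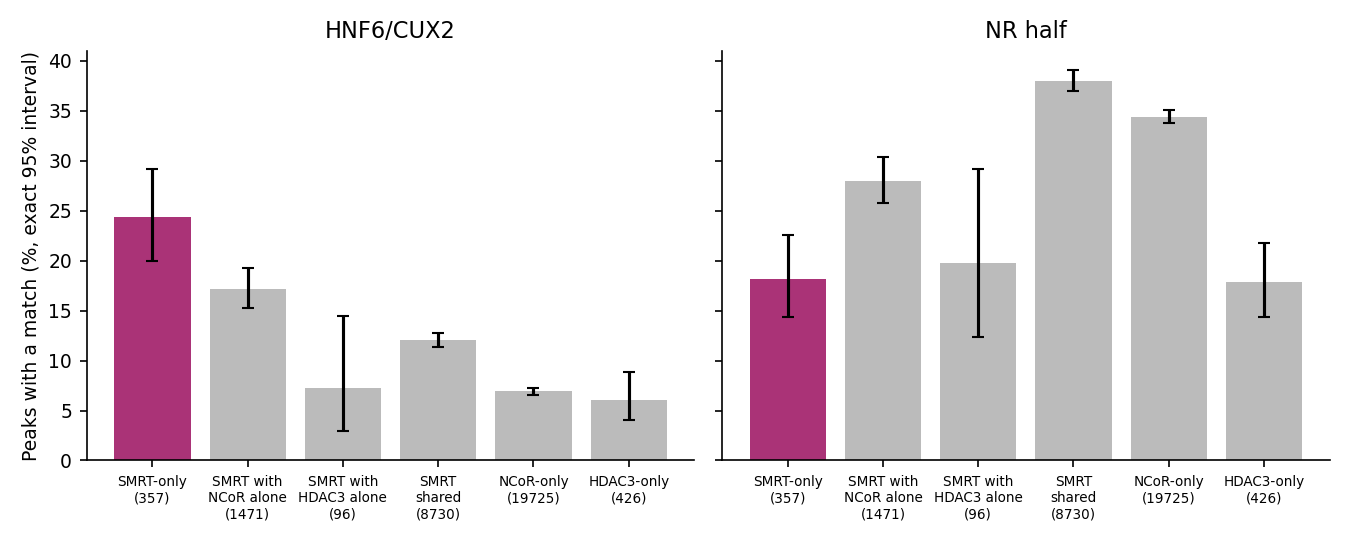
Share of peaks with an HNF6/CUX2 match (left) and with a nuclear receptor half-site (right) in 6 classes of peaks, in percent, with the number of peaks in brackets and exact 95% intervals for counting error. SMRT-only peaks hold HNF6/CUX2 in 24.4%, against 6.10% to 17.2% in the other classes drawn, and the half-site in 18.2%, near the 17.8% of HDAC3-only peaks and the 19.8% of SMRT peaks with HDAC3 alone.

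Among members, these features varied with the distance to the nearest partner. The distance is the measure that chose the members, so the values are a description with no test. HNF6/CUX2 was present in 3 of 57 members up to 400 bp (5.26%), in 11 of 69 up to 1000 bp (15.9%), in 32 of 134 up to 10000 bp (23.9%) and in 41 of 97 beyond it (42.3%). The half-site share did not follow this order, at 19.3%, 14.5%, 20.9% and 16.5%. FOX matches were in 1.75%, 4.35%, 6.72% and 13.4%. Promoter location went the other way, from 22.8% to 11.6%, 9.70% and 5.15%. Median GC fell from 48.5% in the nearest set to 43%, 43% and 38%. Among members at or below 40% GC alone, HNF6/CUX2 was in 1 of 7, 5 of 26, 22 of 55 and 35 of 59.

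**Figure D5:**
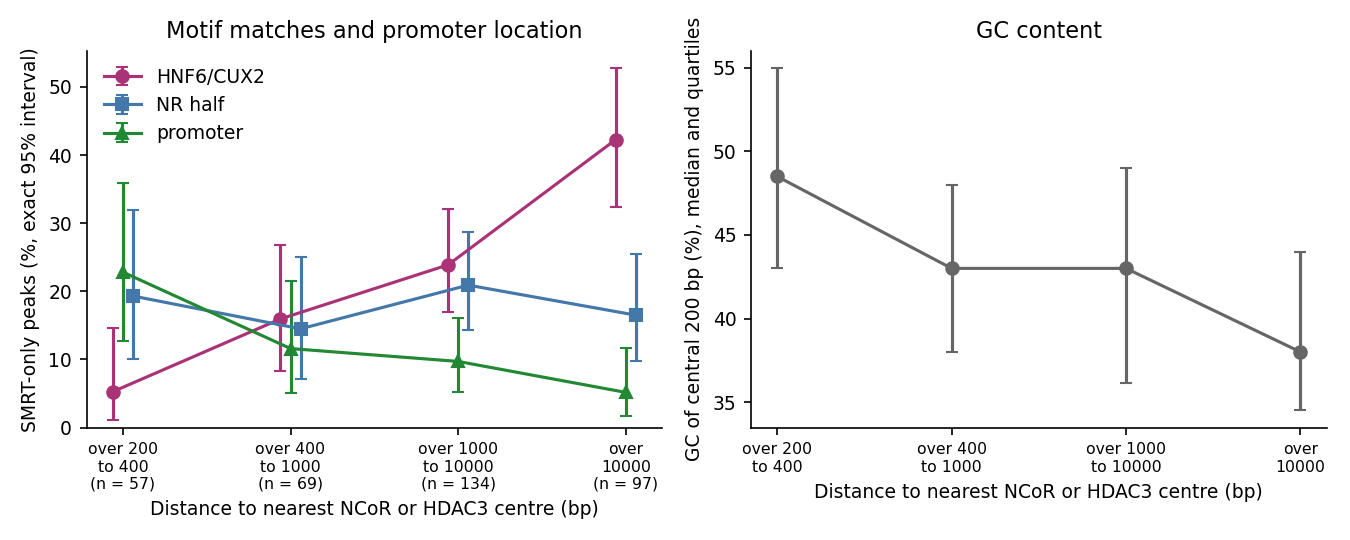
SMRT-only peaks grouped by distance in bp to the nearest NCoR or HDAC3 centre: percent with an HNF6/CUX2 match, a half-site or a promoter location, with exact 95% intervals (left), and median GC of the central 200 bp with quartiles (right). HNF6/CUX2 runs from 5.26% to 42.3% while promoter location runs from 22.8% to 5.15% and median GC from 48.5% to 38%.

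The nearest protein-coding gene was taken by TSS distance, with no evidence in these files that a peak acts on it. The 357 members had 339 different nearest genes, of which 323 had 1 member, 14 had 2 and 2 had 3. Of the 339 genes, 224 also held a shared SMRT peak and 98 had no other SMRT peak. Matching shares over genes nearest to other SMRT peaks were not counted. Since 8730 of 10654 SMRT peaks are shared, these counts cannot be read as a trait of members. Members lay a median of 26115 bp from the nearest TSS, and shared peaks 21946 bp. The genes with 3 were St3gal1, a sialyltransferase, and Tbc1d16, a Rab GTPase-activating protein. The 3 St3gal1 peaks lay 5221 bp, 30253 bp and 50913 bp downstream of its start, 2 of them with HNF6/CUX2 and 2 with BCL6/STAT matches. The 3 Tbc1d16 peaks were in the gene, 10468 to 43077 bp from its start, and 2 of them held a half-site. At both genes a shared SMRT peak lay within 1188 to 20165 bp of each member.

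Among the genes with 2 members were Tle3 and Tle4, corepressor genes of the Groucho family. Of the SMRT peaks nearest to them, 10 of 12 at Tle3 and 2 of 5 at Tle4 were shared peaks. The family was not compared with its share over all SMRT peaks. Tle4 had a member 413 bp upstream of its start and another 95623 bp inside the gene, with NCoR 2512 bp and 14178 bp away and HDAC3 126374 bp and 222410 bp away. Tle3 had members 1814 bp and 49012 bp upstream, the second of which held 3 half-sites and 1 HNF6/CUX2 match. Pik3r1, the regulatory subunit of PI3-kinase in insulin signalling, had a member 206 bp upstream of its start, with HDAC3 316 bp and NCoR 355 bp away. Its other member was 417722 bp from the start, and 17 shared SMRT peaks were also nearest to Pik3r1. Etv3, an ETS-family repressor, had members 14554 bp and 18311 bp from its start, and both held HNF6/CUX2 matches. The remaining genes named by their 2 members were Kcnmb3, Cyp2c50, Snx13 and Deptor, an inhibitor of mTOR. Kcnmb3 had no other SMRT peak.

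Promoter members are shown by the Pik3r1 and Tle4 sequences, chosen after their values were seen. Both were high in GC, at 75% and 67.5%. The Pik3r1 peak, at chr13:101768317-101768529, has a GC box match in capitals. The Tle4 peak, at chr19:14598358-14598570, has in capitals an E-box, CCAAT boxes (2, the second on the other strand) and GC boxes (2, on opposite strands). A further GC box near its left end begins outside the central 200 bp and is in lower case.

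Pik3r1 promoter peak: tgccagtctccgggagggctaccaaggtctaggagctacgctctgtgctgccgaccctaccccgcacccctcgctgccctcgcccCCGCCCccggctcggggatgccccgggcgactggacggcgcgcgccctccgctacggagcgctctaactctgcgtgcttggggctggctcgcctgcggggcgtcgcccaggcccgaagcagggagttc

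Tle4 promoter peak: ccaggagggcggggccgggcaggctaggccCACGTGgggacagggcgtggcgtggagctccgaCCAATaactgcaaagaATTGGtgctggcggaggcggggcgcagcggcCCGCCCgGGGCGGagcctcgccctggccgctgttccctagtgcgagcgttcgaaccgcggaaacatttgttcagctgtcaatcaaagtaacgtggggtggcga

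The 39 promoter members lay in promoters of 42 annotated genes, 30 of them protein-coding. Those closest to a start were at Ankrd40 (0 bp), 6330562C20Rik and Cers2 (the same peak, 4 bp and 29 bp downstream), Slc35d2 (8 bp upstream), Zfp36l2 (12 bp downstream), Ipmk (20 bp upstream), Lncppara (21 bp upstream), 4930505N22Rik (39 bp downstream), P2ry2 (48 bp downstream) and Pdxk (64 bp downstream). Cers2 encodes a ceramide synthase and Zfp36l2 an RNA-binding protein that promotes mRNA decay. Their GC ranged from 66.5% at Pdxk to 78.5% at Ipmk. NCoR was 229 bp from the Pdxk peak and 251 bp from the P2ry2 peak, and the other 7 peaks of this group lay 360 bp or more from either partner.

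Lists of liver genes were nearest to between 1 and 5 members each, and the shares are set beside those of all SMRT peaks, with no test. Fatty acid oxidation genes were nearest to 2 members (0.560%), beside 0.347% of all SMRT peaks. Etfa, an electron transfer flavoprotein subunit, had a member 2322 bp into the gene. Fasting genes that the study names were nearest to 2 members (0.560%, beside 0.685%), 1 in Abhd2 (1209 bp into the gene) and 1 lying 33043 bp upstream of Cd36, the fatty acid translocase. The study chose some of these genes on related samples, so the list is not independent.

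Genes of glucose and insulin action were nearest to 4 members (1.12%, beside 0.939% of all SMRT peaks). Besides the Pik3r1 pair these were Pck1, a gluconeogenic enzyme (6890 bp downstream of its start, NCoR 254 bp away), and Igf1 (139435 bp upstream, NCoR 216 bp away). Lipid synthesis had Lpin1 alone (19725 bp upstream, NCoR 295 bp away). Nfil3, a repressor in the circadian output, was the member of the clock list (4589 bp into the gene).

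Liver transcription factors were nearest to 5 (1.40%, beside 0.798% of all SMRT peaks), among them Foxa1 (6635 bp), Foxa3 (5492 bp), Stat3 (30646 bp) and Cebpb (72960 bp), each downstream of the start. Nuclear receptors were nearest to 4 (1.12%, beside 0.976%). These were Thrb, the thyroid hormone receptor beta (5645 bp upstream), Nr5a2 (84790 bp upstream), Nr3c1, the glucocorticoid receptor (131079 bp upstream), and Nr2f2 (181887 bp upstream). The Thrb and Nr5a2 members each held an HNF6/CUX2 match. Of the corepressor complex list only Kdm4a, a histone demethylase, was nearest to a member, 50111 bp upstream and with 3 half-sites.

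Markers of liver cell types were looked up to check the tissue. Members were nearest to 0 of the markers of hepatocytes, Kupffer cells, endothelium, stellate cells, cholangiocytes and lymphocytes. Of all SMRT peaks, 11 (0.103%) were nearest to 4 hepatocyte markers (5 of the 6 symbols were in the annotation) and 13 (0.122%) to 1 cholangiocyte marker. A further 3 (0.0282%) were nearest to endothelial, 2 (0.0188%) to stellate and 0 to Kupffer cell or lymphocyte markers. With shares this low, the count of 0 among members carries no information on these genes. The cell type in which the members were bound was not tested. Across chromosomes, members made up from 1.93% of SMRT peaks on chromosome 10 (0.967 to 3.43) to 5.26% on X (1.96 to 11.1), with intervals that overlap, and Y, with 1 SMRT peak, had 0.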

How the data were processed

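Livers of 3 animals per cofactor were used per the study's methods. The authors aligned single-end reads to mm10 with Bowtie, kept uniquely mapped reads and 1 read per position, called peaks with HOMER on pooled replicates against input, and kept those past fold and false discovery thresholds in DESeq2. The deposited lists give positions only (chromosome, start, end), with no other measurement, so no depth or peak score was used. Groups came from the labels. SMRT peaks span 212 bp by end minus start.

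Peaks on 21 chromosomes lay inside GRCm38 lengths. Sequence came from the RefSeq GRCm38 assembly, locations from the GENCODE vM21 basic annotation, and motifs were exact matches on either strand. Members and gene lists were chosen with earlier results of these data known. Named genes were the 10 nearest to most members (ties by distance, then symbol), the 10 whose promoter held the member closest to a start, and genes of the lists nearest to a member. Some genes that the rule would name are not reported here. Fisher's exact tests were adjusted by the Benjamini-Hochberg method over 6 features, 15 motifs or 2080 words. Motif tests against other classes were adjusted over 4 tests, and covered only the 2 motifs past the threshold against shared peaks. Python 3.11.15 was used with scipy 1.17.1 and statsmodels 0.14.6, and the Fisher's exact tests were tried on simulated data. Alternatives were membership at 100, 400 and 1000 bp or by overlap of 1 bp, autosomes, other comparators, promoter width, window, neighbour distance, masked bases and peaks outside promoters. GC bands, membership at 10000 bp, 6-base words and other classes for motifs were added after the data were seen.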

Additional observations from a re-analysis of the deposited data

How the results depend on the processing

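The half-site, HNF6/CUX2 and GC differences from shared peaks kept their direction and stayed past the threshold in every alternative run for them. The number of members moved with the rule, to 532 (4.99% of SMRT peaks) at 100 bp, 300 (2.82%) at 400 bp and 231 (2.17%) at 1000 bp, and was 345 (3.24%) by overlap. The odds ratio of HNF6/CUX2 ran from 1.67 within GC bands to 5.35 at 10000 bp.

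Of the 6 features, 3 passed at 100 bp, where promoter (odds ratio 1.45) and repeat-masked centre (1.49) joined GC, 2 passed on autosomes, where CpG-rich joined (1.82, adjusted p = 0.0481), and 2 passed at 10000 bp, where having a SMRT neighbour fell to an odds ratio of 0, which that rule nearly forces. Against HDAC3-only peaks 5 features rather than 4 passed at 100 bp and at 1000 bp. Within GC bands 5 of 15 motifs and 80 rather than 178 words passed.

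Directions turned for features and motifs that had not passed in the main comparison. Some of these had passed in an alternative: promoter and repeat-masked centre at 100 bp, CpG-rich on autosomes, and the GC box and NRF1 within GC bands. At 100 bp these were intergenic (odds ratio 0.968), neighbour (0.9) and CTCF (0.747). At 400 bp they were the GC box (0.941) and CTCF (0), at 1000 bp promoter (0.922), neighbour (0.847), the GC box (0.880) and CTCF (0). At 10000 bp they were promoter (0.582), repeat-masked centre (0.767), CpG-rich (0.857), FOX (1.42), E-box (0.547), GC box (0.356), CCAAT box (1.05), NRF1 (0) and CTCF (0). CTCF went to 0 with masked bases removed and outside promoters, where E-box (0.986) and CCAAT box (1.01) also turned. The causes were not tested.

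No paired analysis was possible because the lists pool replicates and hold no value per library. For the same reason leaving out replicates and a stricter peak score were not run. Depth and peak strength, which set how many partner peaks are called, cannot be examined in these lists.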
